A study of Mus musculus with 18 samples.

Results

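Ribosome-bound RNA from the livers of mice fed a high-fat diet with lycopene (HFD+LYC, 3 libraries) was compared with that of mice fed normal chow (control, 3 libraries). These are 6 of the 18 libraries of the series, chosen by their diet and library labels, and all 24539 genes listed in their count tables were taken up. All animals were wild-type C57BL/6 males that went onto their diet at 8 weeks of age, stayed on it for 8 weeks and were sampled at 16 weeks. Lycopene is the red carotenoid of tomatoes, and neither its dose nor the fat content of the diet is given in the labels. The HFD+LYC animals differed from the controls in dietary fat and in lycopene at once, so that the part of each cannot be told apart in this comparison. Another group, fed the high-fat diet alone (HFD, 3 libraries), entered the model to estimate the spread, and its levels are given beside some results. Total mRNA libraries from livers of the same diets, 3 a group, serve as a second readout. Whether libraries with the same number came from the same liver is not stated.

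Ribosome-nascent chain complexes (RNCs) are ribosomes caught with the message they are reading and the protein chain they are making. RNC sequencing pellets these complexes through a sucrose cushion and sequences the poly(A) messages found in the pellet, so that it reports which messages are engaged by ribosomes, but not where on a message the ribosomes sit. In hepatocytes a large part of this traffic is on the endoplasmic reticulum, where plasma proteins and apolipoproteins are made for secretion. Messages for ribosomal proteins are usually held in balance with one another, and many begin with a run of pyrimidines through which their loading responds to growth and nutrient signals. Dietary carotenoids are cleaved by the oxygenases Bco1 and Bco2, and the liver turns its lipid, bile acid and clock programmes with feeding.

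The HFD+LYC RNC libraries stood apart before any test. The 6 libraries held between 4533729 and 12036487 reads. A read was found for 8940 to 10037 genes in the HFD+LYC RNC libraries and for 14072 to 14333 genes in the control RNC libraries, and only 70 to 112 genes had exactly 1 read in HFD+LYC, against 776 to 861 in control. The HFD+LYC total mRNA libraries had a read for 13791 to 14876 genes. Replicate 2 of these also had few low counts, with 189 genes at exactly 1 read against 693 and 652 in replicates 1 and 3. Its 10 most abundant genes took 7.68% of its reads, against 14.3% and 20.5%. A total of 1884 genes had reads in all 3 control RNC libraries and none in the 3 HFD+LYC RNC libraries, and 1373 of those had reads in all 3 HFD+LYC mRNA libraries. The same count for the HFD RNC libraries was 36. HFD+LYC replicate 1 had the lowest scaling factor, 0.428, against 0.836 or more in the other HFD+LYC replicates, and its 10 most abundant genes took 47.3% of its reads. Levels are given as CPM (read counts relative to library size) scaled with trimmed means (TMM). Hepatocyte markers were present in all 6 libraries, with albumin (Alb) at 54750 CPM or more.

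Of 11660 genes with enough reads to test, 1076 were called higher (9.23%) and 1996 lower (17.1%) in HFD+LYC RNC at a Benjamini-Hochberg adjusted p under 0.05 in edgeR's quasi-likelihood test. The levels of the 2 groups did not overlap for 14.1% of the genes in the higher direction and for 30.6% in the lower. The median change over all tested genes was -0.28 on the log2 scale. The split between directions depended on centring. Calls were 377 higher and 2122 lower with library size alone (a median change of -0.74), and 1971 higher and 1182 lower once a trend on GC content was taken out of each library (a median change of 0.37), so that higher calls made up 35.0%, 15.1% and 62.5% of all calls in these 3 fits. Taking out this trend (the GC offset) thus also moved the centre of all genes. List and gene values given below with that offset carry this move, and cannot be read as an effect of GC content alone. List counts with the offset stand beside these 1971 higher and 1182 lower calls over 11567 genes. Leaving out control replicate 1, 2 or 3 lowered the higher calls to 658, 576 or 603, and leaving out HFD+LYC replicate 2 raised the lower calls to 3097. In total mRNA of the same diets 419 of 12664 genes were called higher (3.31%) and 282 lower (2.23%). The RNC to mRNA ratio was called higher for 357 of 12872 genes (2.77%) and lower for 1549 (12%).

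The largest block of change was in ribosomal proteins. All 79 genes of the cytosolic ribosomal proteins were tested and all 79 were called lower in HFD+LYC RNC, with a median log2 change of -4.44 and a range from -5.93 to -2.44. Of the 78 mitochondrial ribosomal protein genes 75 were called lower and none higher, with a median of -4.93. Summed over the cytosolic list, the level was 19992, 19700 and 17173 CPM in the 3 control RNC libraries and 909, 1503 and 812 CPM in the 3 HFD+LYC RNC libraries. The 3 HFD RNC libraries held 13861 to 16788 CPM. The HFD+LYC libraries lay far below all others, and the HFD libraries a small step below control. In total mRNA the same sum was 29197, 10299 and 20026 CPM in control and 15713, 9234 and 20237 CPM in HFD+LYC, so that the groups overlapped. None of the 79 genes was called in mRNA, where the median change was -0.46, and the RNC to mRNA ratio was called lower for all 79.

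**Figure D1:**
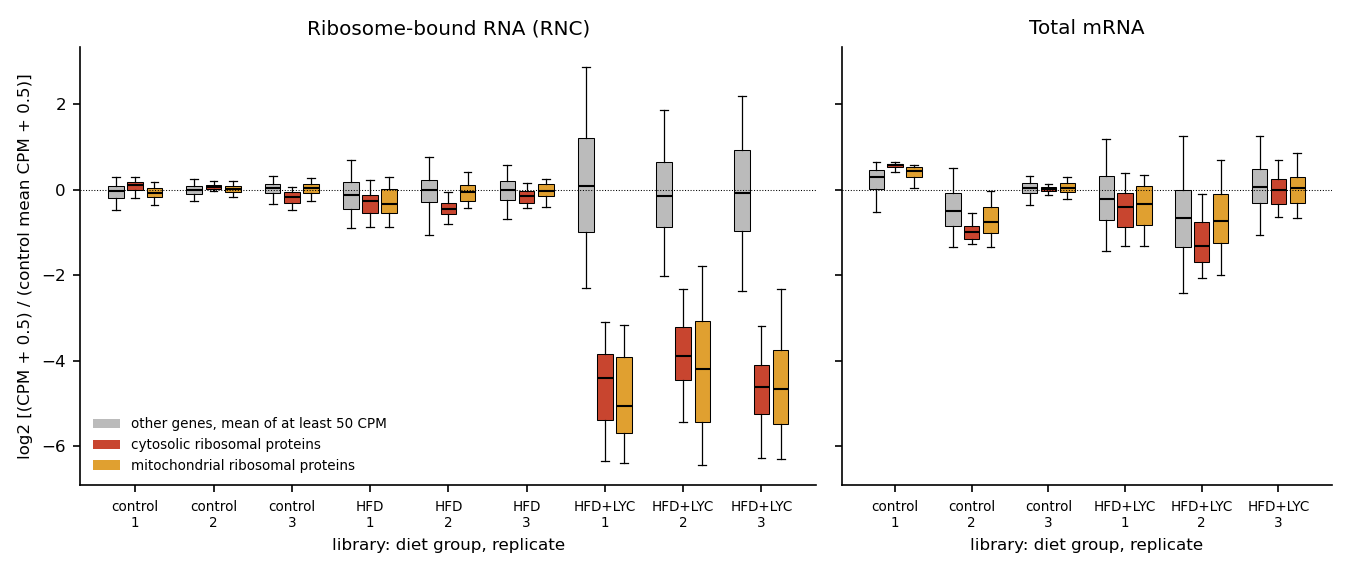
Level of each gene relative to the control mean of its library kind, on a log2 scale after adding 0.5 CPM, for each RNC library (left) and total mRNA library (right). Boxes show the middle 50% of genes with the median as a line, and whiskers run from the 5th to the 95th percentile. In the 3 HFD+LYC RNC libraries the boxes of cytosolic (red) and mitochondrial (yellow) ribosomal proteins lie well below those of other genes of at least 50 CPM (grey), and in total mRNA they do not separate in this way.

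Single genes show the size of the fall. Rpl10 (chrX:74270816-74273135), a protein of the large subunit, had 495, 556 and 521 CPM in control RNC and 8.49, 11.1 and 6.29 CPM in HFD+LYC RNC, a log2 change of -5.93 (SE 0.317, adjusted p = 9.70e-06). Its total mRNA was 666, 227 and 488 CPM in control and 298, 183 and 418 CPM in HFD+LYC. The RNC groups lie far apart while the mRNA groups overlap. Rps7, of the small subunit, went from 280, 306 and 275 CPM to 6.42, 5.37 and 2.81 CPM (log2 change -5.90, SE 0.342, adjusted p = 9.70e-06). The stalk protein Rplp0 had 229 to 273 CPM in control RNC and 4.55 to 12.9 CPM in HFD+LYC RNC (log2 change -4.80, SE 0.395, adjusted p = 6.90e-05). In the mitochondrial ribosome, Mrps33 fell from 77.2, 70.5 and 60.5 CPM to 0 reads in all 3 HFD+LYC libraries. Set against 3 reads over the group it was at least 405-fold lower, provided that these zeros are true counts. Its total mRNA stood at 27.0, 17.1 and 52.3 CPM in HFD+LYC. Mrpl51 kept some reads, at 2.90, 3.45 and 4.69 CPM against 69.7 to 83.7 CPM in control. All 5 genes had no overlap between the groups.

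The genes were also counted by their symbols, a grouping made after the values were seen. Among genes with a control mean of at least 20 CPM, 105 of the 144 whose symbols begin with Rpl, Rps, Mrpl or Mrps (72.9%) lay under 10% of the control mean in every HFD+LYC RNC library, against 19 of 3497 genes with other symbols (0.543%). None of the 105 did so in total mRNA. Symbols of this kind include genes that are not ribosomal subunits. The ribosomal S6 kinases, signalling enzymes that phosphorylate ribosomal protein S6 and other targets, were called lower in 8 of 8 tested members with a median of -6.45, a list added after these values were seen. Rps6kb1, the S6 kinase downstream of mTOR, had 16.4, 17.5 and 17.4 CPM in control RNC and 0.207, 2.30 and 0.402 CPM in HFD+LYC RNC (log2 change -4.15, SE 0.688, adjusted p = 0.00308), with total mRNA of 40.4 to 62.3 CPM in control and 41.2 to 69.7 CPM in HFD+LYC. Rps6ka3, another kinase of the family, had 4.76 to 7.87 CPM in control RNC and a single read in the HFD+LYC RNC libraries. Rps27l and Rpl7l1, named for their likeness to ribosomal proteins, changed by -5.54 and -5.49.

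Ribosome components whose symbols begin otherwise gave mixed results. Of 3 tested in the cytosolic ribosome 2 were lower (median -2.80), and of 5 in the mitochondrial ribosome 1 was higher and 1 lower. Rack1, a scaffold protein of the small subunit, had 194, 193 and 182 CPM in control RNC and 231, 172 and 173 CPM in HFD+LYC RNC, and the groups overlap (log2 change 0.02, SE 0.211, adjusted p = 0.959). Gadd45gip1, a protein of the mitochondrial large subunit, was higher, at 125, 161 and 187 CPM against 58.5 to 79.4 CPM (log2 change 1.24, adjusted p = 0.0142). That call was lost with library size alone (0.80, adjusted p = 0.264) and without control replicate 2 or 3 (adjusted p = 0.0646 and 0.0684). Fau, which encodes a ribosomal protein fused to a ubiquitin-like protein, was called lower, from 160 to 207 CPM in control RNC to 24.6 to 30.8 CPM in HFD+LYC RNC (log2 change -2.80, SE 0.225, adjusted p = 5.18e-05). Of 29 ribosome assembly factors, 7 were called lower and 1 higher, with a median of -0.34 near that of all genes. With the GC offset 6 were lower and 4 higher. Among them the nucleolar protein Rsl1d1 had 34.6, 37.9 and 37.6 CPM in control RNC and 0.414, 0 and 1.21 CPM in HFD+LYC RNC, and Imp3, of the small subunit processome, had 28.7 to 37.0 CPM and at most 0.402 CPM. Whether the falls reflect the animals or the making of these 3 libraries and their tables was not tested.

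The start of these messages can be set beside their change. Shown are the 30 bases around the RefSeq start of 5 genes (GRCm38.p6, the first start listed for each gene, from 15 bases before the start to 15 bases from it), with the longest unbroken run of C and T in capitals, because such a run at the start of a message marks the class whose loading answers to nutrients. Rpl15 (chr14:18270972-18271001, minus strand), Rps6 (chr4:86857353-86857382, minus strand) and Fau (chr19:6057932-6057961, plus strand) were called lower in RNC, Eef1a1 (chr9:78481710-78481739, minus strand) was lower by a smaller step, and Rack1 (chr11:48800345-48800374, plus strand) was at its control level.
Rpl15: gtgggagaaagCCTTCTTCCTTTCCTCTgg
Rps6: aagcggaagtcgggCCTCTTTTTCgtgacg
Fau: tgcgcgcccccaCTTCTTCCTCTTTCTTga
Eef1a1: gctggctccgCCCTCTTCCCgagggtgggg
Rack1: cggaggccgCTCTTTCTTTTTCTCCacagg
A run of this kind was present in all 5, of 17 bases in Rpl15, 10 in Rps6 and Eef1a1 and 16 in Fau and Rack1. A run of at least 5 such bases on the strand of the gene was in this window for 69.0% of the 58 cytosolic ribosomal protein promoters matched, 55.1% of the 69 mitochondrial ones, 3 of the 8 matched for the S6 kinases and 47.4% of all 27025 promoters. Rpl15 RNC levels were 253, 245 and 235 CPM in control and 6.62, 6.91 and 8.17 CPM in HFD+LYC, and Rps6 changed by -5.12 (SE 0.448). Eef1a1, the elongation factor that brings aminoacyl-tRNA to the ribosome, had 2283, 2817 and 2685 CPM in control RNC and 839, 1173 and 790 CPM in HFD+LYC RNC (log2 change -1.47, SE 0.315, adjusted p = 0.00720), a call lost after the GC trend was taken out (-0.48, adjusted p = 0.306). Of 16 other messages known to carry such a start, 6 were called lower and none higher, with a median of -0.51. With the GC offset 1 was lower and 3 were higher (median 0.24).

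Translation factors were mixed. Of 47 tested, 16 were called lower and 2 higher, with a median of -0.56 that became 0.22 after the GC trend was taken out, where 9 were higher and 2 lower. Eif5b, which joins the ribosomal subunits at the start codon, rose from 34.5, 50.6 and 42.9 CPM to 368, 504 and 427 CPM (log2 change 3.34, SE 0.280, adjusted p = 6.69e-05). Its RNC change was larger than its mRNA change of 1.56, and the ratio was called higher (1.73, adjusted p = 0.00562).

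Genes of the circadian clock gave some of the largest rises, several of them in both readouts. Of 19 tested members 7 were called higher and 2 lower in RNC, and 9 and 3 in mRNA, while the ratio was called higher for 1 and lower for 2. Dbp, a PAR bZIP factor whose output follows the clock, had 0.970, 1.11 and 1.01 CPM in control RNC and 72.5 to 88.4 CPM in HFD+LYC RNC (log2 change 6.24, SE 0.715, adjusted p = 4.45e-04). Its total mRNA went from 1.05, 1.52 and 1.52 CPM to 163, 114 and 100 CPM. No HFD+LYC library of either kind came near a control library. The HFD RNC mean of Dbp was 11.6 CPM, between the means of the other diets. The deubiquitinase Usp2 rose from 0.529, 1.11 and 0.698 CPM to 164, 191 and 197 CPM (log2 change 7.85, SE 0.608), and its HFD mean was 0.652 CPM. Tef, a relative of Dbp, rose from 10.9 to 15.3 CPM in control to 127 to 180 CPM, Per3 from at most 0.556 CPM to 16.3 to 26.5 CPM, and Per1 from at most 1.23 CPM to 8.69, 44.3 and 36.7 CPM. Per1 and Per3 belong to the period proteins of the core loop of the clock.

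Npas2, a partner of Arntl (Bmal1) in the activating arm of the clock, was called lower. It had 8.02, 5.17 and 8.07 CPM in control RNC and no read in HFD+LYC RNC, at least 41.4-fold lower if these zeros are true counts. Its mRNA fell as well (log2 change -5.75, adjusted p = 0.00309). Arntl itself had 8.90 to 13.5 CPM in control RNC and 3.10, 0 and 0 CPM in HFD+LYC RNC, which did not pass the test (adjusted p = 0.0748) but did without HFD+LYC replicate 1 (adjusted p = 9.61e-04) and in DESeq2 (adjusted p = 0.0155), while its mRNA was called lower (-2.66, adjusted p = 0.0124). Nfil3, a repressor that opposes Dbp, fell in RNC from 15.0, 26.9 and 33.9 CPM to 0, 1.34 and 1.87 CPM but was level in mRNA (0.02, adjusted p = 0.983), and the ratio was called lower (-4.54, adjusted p = 0.00138). No label gives the time of day of sampling for any group.

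Clock factors bind the E-box, CACGTG, which reads the same on both strands. Stretches with this motif in capitals are shown for 3 clock genes with large rises, from Tef (chr15:81802534-81802563, plus strand), Per1 (chr11:69098771-69098800, plus strand) and Ciart (chr3:95882327-95882356, minus strand), with the motif beginning 127, 166 and 116 bases before the first RefSeq start listed. The annotated spans of Per1 and Ciart reach further upstream than that start, so that another start of these genes would give another distance.
Tef: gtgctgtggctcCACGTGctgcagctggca
Per1: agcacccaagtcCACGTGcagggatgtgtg
Ciart: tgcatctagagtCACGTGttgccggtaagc
The motif was in the 250 bases before the start for 5 of the 17 clock genes with a RefSeq promoter, 6.05% of all 27025 promoters, 9.75% of the 831 matched genes called higher in RNC and 7.24% of the 1561 called lower. Dbp and Usp2 had none in this window. Ciart, a clock repressor, was not tested in RNC, where it had at most 0.159 CPM in control and 0, 9.40 and 16.2 CPM in HFD+LYC, and its mRNA rose from 0.657 CPM or less to 147, 150 and 79.1 CPM (log2 change 7.85, adjusted p = 3.34e-04).

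Of 26 genes of fatty acid and triglyceride synthesis 12 were called higher and 3 lower in RNC (median 0.79), and in total mRNA 5 were higher. With library size alone 5 were higher and 3 lower in RNC (median 0.32). Lpin1, the phosphatidate phosphatase that makes diacylglycerol, had 12.5, 13.4 and 4.81 CPM in control RNC and 460, 479 and 633 CPM in HFD+LYC RNC (log2 change 5.68, SE 0.425, adjusted p = 4.29e-05), with an HFD mean of 16.6 CPM. Elovl6, which elongates palmitate, rose from 20.6, 30.8 and 33.2 CPM to 552, 569 and 747 CPM (log2 change 4.46, SE 0.347). Both were called higher in mRNA as well (4.65 and 3.70). Fatty acid synthase (Fasn) rose in RNC from 137 to 218 CPM to 535 to 887 CPM (log2 change 2.02, adjusted p = 0.00145) and was not called in mRNA (0.25, adjusted p = 0.750), and the ratio was called higher (1.70, adjusted p = 0.0349). The desaturase Scd1 had 2873 to 5439 CPM in control and 5376 to 10400 CPM in HFD+LYC and was not called (0.88, adjusted p = 0.184).

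Other members fell or stayed. Elovl3, an elongase of very long chains, went from 475, 456 and 441 CPM to 99.8, 70.2 and 67.8 CPM (log2 change -2.53, SE 0.323, adjusted p = 8.00e-04). Malic enzyme (Me1), which supplies NADPH, was lower at -1.42 (adjusted p = 0.00853), with a higher HFD mean of 540 CPM against 156 to 257 CPM in control, and its call was lost after the GC trend was taken out (-0.13, adjusted p = 0.829). With the same offset Scd1 was called higher (1.87, adjusted p = 0.0131).

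Mfsd2a, a transporter of lysophosphatidylcholine, was among the 12 largest rises (at a mean level of 10 CPM or more). It had 0.793, 1.83 and 1.32 CPM in control RNC and 139, 106 and 153 CPM in HFD+LYC RNC (log2 change 6.64, SE 0.446, adjusted p = 2.35e-05). Its mRNA rose by 7.96, and its HFD RNC mean was 65.8 CPM. Of the lipid droplet and fatty acid uptake genes, 5 of 25 were called higher and 1 lower. Cidec, which fuses lipid droplets, had 0.233 to 0.970 CPM in control and 2.69, 29.0 and 8.44 CPM in HFD+LYC (log2 change 4.37, SE 1.01, adjusted p = 0.0107). The droplet coat protein Plin2 had 218, 258 and 294 CPM in control and 126, 195 and 139 CPM in HFD+LYC, not called (adjusted p = 0.138), with an HFD mean of 511 CPM. The fatty acid transporter Cd36 had 15.7 to 33.5 CPM in control and 47.4 to 57.2 CPM in HFD+LYC, which did not overlap but missed the threshold (1.20, adjusted p = 0.0640), and it passed without control replicate 1 (1.59, adjusted p = 0.0432), without HFD replicate 2 (adjusted p = 0.0325) and in DESeq2 (adjusted p = 0.0228).

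**Figure D2:**
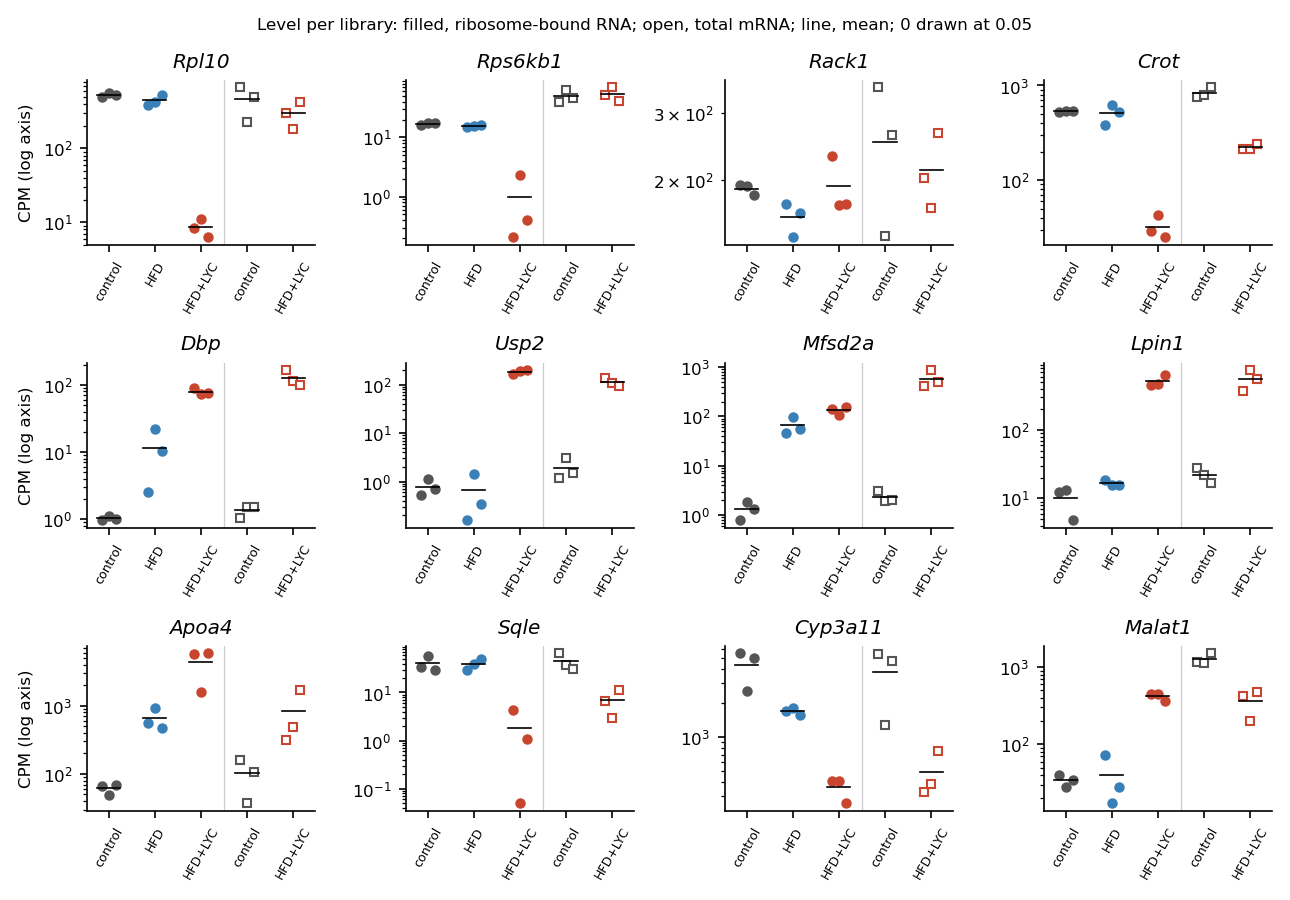
Level in TMM-scaled CPM on a log axis for 12 genes, with 1 point per library, a line at the mean of 3 libraries and 0 drawn at 0.05. Filled circles are RNC libraries and open squares total mRNA libraries, grey for control, blue for HFD and red for HFD+LYC. Rpl10 and Rps6kb1 are low in HFD+LYC RNC while their mRNA groups overlap, Dbp, Usp2, Mfsd2a and Lpin1 rise in both readouts, and Malat1 lies above control in RNC and below it in mRNA.

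Of 25 apolipoprotein and lipoprotein assembly genes, 16 were called higher and 1 lower in RNC (median 1.70), against 2 higher in mRNA (median -0.06), and the ratio was called higher for 11. Acute phase and abundant plasma proteins gave 13 of 34 higher and none lower (median 1.31, mRNA median -0.82, ratio higher for 14). Complement and coagulation factors gave 14 of 40 higher and 1 lower (median 1.04), which became 11 and 5 without HFD+LYC replicate 1, 10 and 6 with library size alone, and 7 and 0 with the 6 libraries alone. Without HFD+LYC replicate 2 the higher calls of these 3 lists were 22, 23 and 23. The medians of these lists were positive in the 9 fits in which they were compared, and without HFD+LYC replicate 1 they were 1.40, 0.76 and 0.46.

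HFD+LYC replicate 1 was the highest library for 7 of the 8 genes of these lists named in this paragraph, Apoa4 being the exception. Adipsin (Cfd), of the complement list and given further on, was lowest of the HFD+LYC libraries in replicate 1 (79.9, 218 and 150 CPM). Apoa4, an apolipoprotein that follows dietary fat and hepatic triglyceride, had 65.5, 49.2 and 69.3 CPM in control RNC and 5799, 1596 and 5854 CPM in HFD+LYC RNC (log2 change 6.17, SE 0.599, adjusted p = 1.73e-04). Apoa1, the main protein of high-density lipoprotein, had 9291, 9428 and 8693 CPM and then 128854, 33532 and 54214 CPM (log2 change 2.98, SE 0.529, adjusted p = 0.00400), while its mRNA change was -0.16. The groups did not overlap for either gene. Apoa5 rose by 3.09, haptoglobin (Hp), which binds free haemoglobin, by 2.93, the glucocorticoid-binding globulin Serpina6 by 3.55 and coagulation factor F10 by 2.53. Plasma prekallikrein (Klkb1) had closer replicates, at 120, 142 and 137 CPM in control and 578, 547 and 403 CPM in HFD+LYC (log2 change 1.93, SE 0.236), and was called in mRNA as well (1.35, adjusted p = 0.0370). Alb had 60087, 60775 and 75136 CPM in control and 199487, 54750 and 111251 CPM in HFD+LYC, which overlapped and was not called (0.90, adjusted p = 0.235), though it was without HFD+LYC replicate 2 (1.23, adjusted p = 0.0363) and after the GC trend was taken out (1.98, adjusted p = 0.0355).

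Of 34 lysosome and autophagy genes 15 were called higher and 2 lower in RNC (median 1.06), or 8 and 2 with library size alone (median 0.43), 1 was called higher in mRNA, and the ratio was called higher for 10 and lower for 1. Cathepsin D (Ctsd), a lysosomal protease, had 119, 140 and 141 CPM in control and 1495, 403 and 854 CPM in HFD+LYC (log2 change 2.78, SE 0.432, adjusted p = 0.00227), and acid glucosidase (Gaa), which breaks down lysosomal glycogen, went from 25.1 to 34.3 CPM to 95.3 to 256 CPM (2.52, adjusted p = 0.00125).

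**Figure D3:**
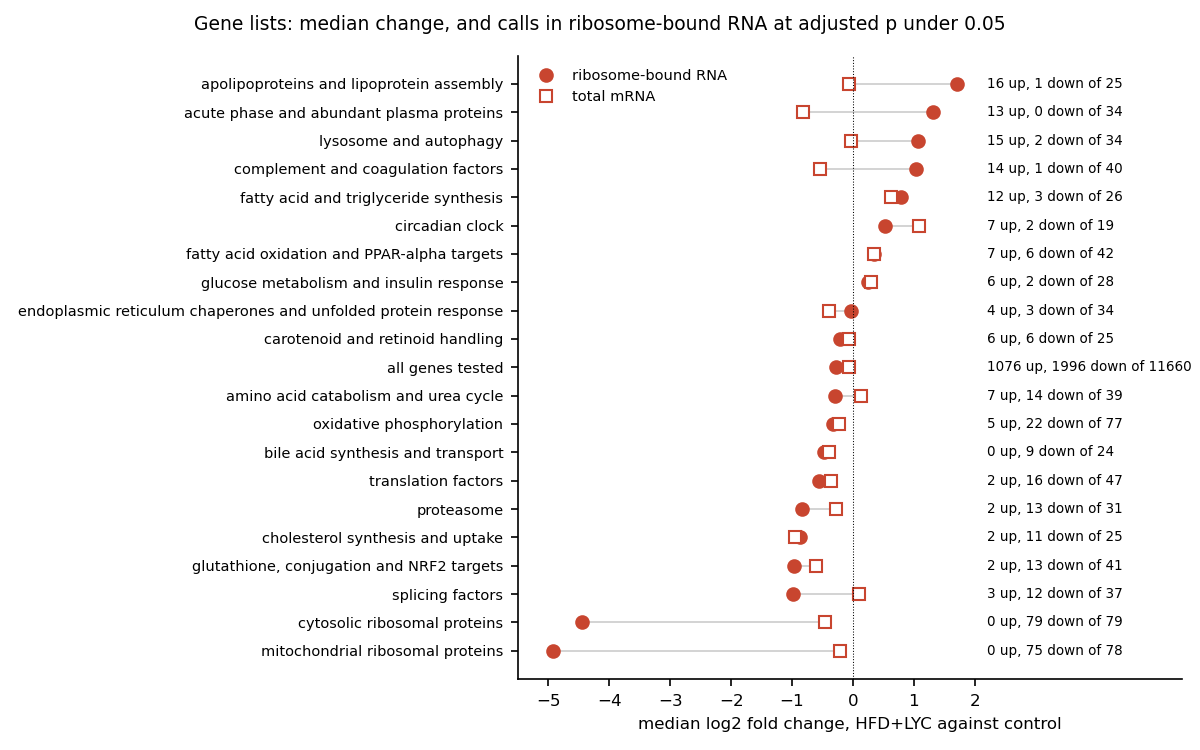
Median log2 fold change of 20 gene lists and of all tested genes in HFD+LYC against control, for RNC (filled circles) and total mRNA (open squares), with the number of members called higher (up) and lower (down) in RNC at an adjusted p under 0.05. Apolipoproteins, plasma proteins and lysosomal genes have positive medians in RNC. In mRNA the apolipoprotein (-0.06) and lysosomal (-0.03) medians lie near that of all genes (-0.06), and the plasma protein median is -0.82. Both ribosomal protein lists lie far to the left in RNC.

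Cholesterol and bile acid genes gave more lower than higher calls. The balance depended on the GC offset, which moved the median of all genes from -0.28 to 0.37. Of 25 genes of cholesterol synthesis and uptake 11 were called lower and 2 higher in RNC (median -0.87). In total mRNA 4 were called lower and none higher, and 2 of the 25 lay above control. The mRNA median was -0.95, against -0.06 over all genes, and the ratio was called for none. After the GC trend was taken out 4 were lower and 2 higher in RNC. Their median was then 0.02, below the 0.37 of all genes. Squalene epoxidase (Sqle) had 34.6, 57.8 and 29.5 CPM in control RNC and 4.35, 0 and 1.07 CPM in HFD+LYC RNC (log2 change -4.54, SE 0.833, adjusted p = 0.00460), and its mRNA was lower too (-2.65, adjusted p = 0.0354). Idi1, an isomerase of the same pathway, was lower at -2.61, a call lost with the GC offset (-0.98, adjusted p = 0.284). Of 24 bile acid genes 9 were lower and none higher (median -0.48), but 5 were higher and 3 lower with the GC offset (median 0.40). Akr1c6, a hydroxysteroid dehydrogenase, fell from 782, 887 and 1132 CPM to 93.1, 114 and 67.9 CPM (-3.35, SE 0.411) and also in mRNA (-2.34, adjusted p = 0.0391). Baat, which conjugates bile acids, was lower at -1.52, a call lost with that offset (-0.26, adjusted p = 0.494).

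Among drug and steroid metabolism genes, 9 of 33 cytochrome P450 genes were lower and 4 higher (median -0.23), and with the GC offset 2 were lower and 5 higher (median 0.55). Cyp3a11, the main inducible member, had 5429, 2525 and 4966 CPM in control RNC and 412, 406 and 261 CPM in HFD+LYC RNC (log2 change -3.58, SE 0.379, adjusted p = 2.72e-04), with an HFD mean of 1685 CPM and a like fall in mRNA (-2.94). Its electron donor Por, cytochrome P450 reductase, rose instead, from 35.8, 27.8 and 33.4 CPM to 407, 427 and 450 CPM (3.72, SE 0.278, adjusted p = 3.57e-05), while the HFD mean was 35.7 CPM. Cyp17a1, of steroid synthesis, rose from at most 0.954 CPM to 10.7 to 22.6 CPM, and its HFD mean lay within that range. Of 41 glutathione, conjugation and NRF2 target genes 13 were lower and 2 higher (median -0.97), and with the GC offset 3 were lower and 9 higher (median -0.28). The medians of all genes in these 2 fits were -0.28 and 0.37, so that the list lay below all genes in both. Gclm, the regulatory subunit of glutathione synthesis, fell from 109 to 140 CPM to 21.0 to 29.2 CPM (-2.32, SE 0.243) with no call in mRNA, and the lipid peroxide reductase Gpx4 rose from 351 to 359 CPM to 743 to 1342 CPM (adjusted p = 0.00399), a call lost with library size alone (adjusted p = 0.118).

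Genes of carotenoid and retinoid handling were split, with 6 of 25 higher and 6 lower, and 9 higher and 3 lower with the GC offset. Bco1, which cleaves provitamin carotenoids, had 2.56, 4.05 and 3.10 CPM in control RNC and 5.59, 9.40 and 22.5 CPM in HFD+LYC RNC, without overlap but short of the threshold (1.95, adjusted p = 0.0570). It passed without HFD+LYC replicate 1 or 2 (adjusted p = 0.0124 and 0.0354) and in DESeq2 (adjusted p = 0.00714). Bco2, the mitochondrial enzyme that accepts lycopene, had 16.4, 15.6 and 20.5 CPM and then 7.45, 15.5 and 11.9 CPM (-0.59, adjusted p = 0.244). Scarb1, a receptor through which carotenoids and high-density lipoprotein lipids enter cells, rose from 53.6 to 61.5 CPM to 95.3 to 283 CPM (1.77, SE 0.358, adjusted p = 0.00617), with no change called in mRNA (-0.06) and a called ratio (1.78, adjusted p = 0.0164). The retinaldehyde dehydrogenase Aldh1a1 fell from 1411, 1202 and 1370 CPM to 171, 303 and 207 CPM (-2.55, SE 0.319), and the retinoid X receptor Rxra rose by 1.33, a call lost with library size alone (0.90, adjusted p = 0.153).

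Amino acid, fatty acid oxidation and respiratory genes moved in both directions. Of 39 genes of amino acid catabolism and the urea cycle 14 were lower and 7 higher, against 3 lower and 8 higher with the GC offset and 10 lower and 1 higher with library size alone, and the 7 calls in mRNA were all higher. Cth, which makes cysteine, fell in RNC from 315, 350 and 340 CPM to 64.0, 33.6 and 35.2 CPM (-2.92, SE 0.327), and Oat, ornithine aminotransferase, fell by 2.54, both without a call in mRNA. Serine dehydratase (Sds) and argininosuccinate lyase (Asl) rose by 2.54 and 1.67 in RNC and by 3.10 and 2.47 in mRNA, and the RNC call of Asl was lost with library size alone (adjusted p = 0.0517). Of 42 fatty acid oxidation genes 7 were higher and 6 lower, and with the GC offset 13 and 2. Etfa, which passes electrons from the acyl-CoA dehydrogenases, fell from 318, 337 and 324 CPM to 34.6, 62.0 and 42.3 CPM (-2.82, adjusted p = 2.38e-04) against an mRNA change of 0.12, and the dehydrogenase Acadm was lower at -1.71, a call lost with the GC offset (-0.75, adjusted p = 0.102). The pantetheinase Vnn1 rose from 16.1 to 32.4 CPM to 85.4 to 228 CPM. Of 77 oxidative phosphorylation genes 22 were lower and 5 higher (median -0.33), and with the GC offset 4 were lower and 15 higher (median 0.09). Atp5f1, of the ATP synthase stalk, fell from 275 to 323 CPM to 30.3 to 43.4 CPM, and Ndufb7, of complex I, rose from 92.1 to 141 CPM to 372 to 470 CPM.

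The proteasome and splicing lists also fell in part. Of 31 proteasome genes 13 were lower and 2 higher (median -0.84, and -0.10 with the GC offset, where 6 were lower and 5 higher). Psma1, of the core ring, had 74.8, 92.4 and 98.3 CPM in control and 7.45, 6.71 and 1.61 CPM in HFD+LYC (-4.10, SE 0.532), while Psmd1, of the cap, rose from 58.8, 62.5 and 78.1 CPM to 239, 373 and 337 CPM (2.25, SE 0.244, adjusted p = 2.84e-04). Of 37 splicing factors 12 were lower and 3 higher (median -0.99, and 0.05 with the GC offset, where 5 were lower and 5 higher). Srsf5 fell from 68.5 to 72.5 CPM to 11.9 to 19.4 CPM, and Son, a speckle protein, rose from 28.6 to 37.8 CPM to 244 to 325 CPM. For all 4 genes the ratio was called and the mRNA was not. The chaperone Hsp90aa1 was lower (-2.34) and the inducible Hspa1b higher (3.41, adjusted p = 0.00499), the former call being lost with the GC offset (adjusted p = 0.0681).

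A few genes with other names were nearly lost. The peroxisomal carnitine transferase Crot had 524, 531 and 543 CPM in control RNC and at most 42.6 CPM in HFD+LYC RNC (-4.04, SE 0.310), and the transcription regulator Id2 had 143 to 312 CPM and then 9.02 to 17.2 CPM (-4.11). Both, chosen after their values were seen, fell in mRNA as well, by 1.90 and 2.15. Cks2, a cyclin-dependent kinase subunit, had 19.1, 25.3 and 20.6 CPM in control RNC and no read in HFD+LYC RNC, at least 126-fold lower if these zeros are true counts. The RNA-binding protein Hnrnph2 had 37.2 to 44.2 CPM and at most 0.384 CPM, and neither gene was called in mRNA. Of 36 interferon response genes 9 were lower and 3 higher, and with the GC offset 7 were lower and 7 higher. The higher calls were H2-D1, a class I histocompatibility protein (2.06, adjusted p = 0.0151), the tetherin gene Bst2 (0.86, adjusted p = 0.0206) and the transcription factor Irf7 (1.41, adjusted p = 0.0344). All 3 calls were lost without control replicate 2 (adjusted p = 0.0672, 0.0947 and 0.137) or 3 (0.0520, 0.0733 and 0.115), those of H2-D1 and Bst2 without control replicate 1 (0.0632 and 0.0725), and that of Irf7 without HFD+LYC replicate 1 or 3 (0.0538 and 0.0673). With library size alone Bst2 and Irf7 were not called (adjusted p = 0.540 and 0.267). Psmb9, an immunoproteasome subunit, fell from 16.6 to 19.1 CPM to at most 1.07 CPM with an mRNA change of 0.33, and Rsad2, an antiviral enzyme, had 4.35 to 4.77 CPM in control and no read in HFD+LYC. At 2 to 5 CPM in control, 221 of 2000 genes outside the ribosomal symbols also had no read in HFD+LYC RNC.

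Among RNAs that are not translated, Malat1, Rpph1 and Rmrp were called higher in the HFD+LYC pellet. Malat1, a nuclear long non-coding RNA, had 40.4, 28.2 and 34.7 CPM in control RNC and 443, 444 and 364 CPM in HFD+LYC RNC (log2 change 3.60, SE 0.501, adjusted p = 0.00129). Its total RNA was lower in HFD+LYC, at 421, 201 and 477 CPM against 1117 to 1496 CPM, which did not pass the test (-1.78, adjusted p = 0.0750). The ratio change of 5.31 passed (adjusted p = 2.11e-04). Rpph1 and Rmrp, the RNA subunits of RNase P and RNase MRP, rose from 0.543 to 9.08 CPM to 299 to 526 CPM and from at most 0.556 CPM to 24.7 to 73.0 CPM. Of the 9 other members of these enzymes that were tested, none was higher and 1 was lower. Of 4 nuclear and imprinted long non-coding RNAs tested 2 were higher and none lower, and of 16 host genes of small nucleolar RNAs 2 were higher and 1 lower.

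Messages of striated muscle appeared in the same libraries. Titin (Ttn), the giant spring of the sarcomere, had no read in control RNC and 50.9, 56.4 and 28.1 CPM in HFD+LYC RNC, at least 554-fold higher than 3 reads over the control group would give. The cardiac myosins Myh6 and Myh7 had at most 0.0776 CPM in control RNC, and 67.1, 37.0 and 27.2 CPM and 29.2, 7.48 and 9.24 CPM in HFD+LYC RNC. The HFD+LYC total mRNA libraries held at most 0.407 CPM of Ttn and no read of Myh6 or Myh7. Over the 17 skeletal and cardiac muscle markers the summed level was 0.931 to 2.82 CPM in control RNC and 45.5 to 104 CPM in HFD+LYC RNC, where 9 of the 17, the skeletal myosins Myh1, Myh2 and Myh4 and creatine kinase Ckm among them, were at 0. The part of muscle RNA in the other results was not tested.

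Markers of other cell types are read here against the 17.1% of all genes called lower in RNC. In bulk tissue fewer cells of a type and less RNA per cell cannot be told apart. Of 24 Kupffer cell and macrophage markers 5 were called lower and none higher, with sums of 448 to 536 CPM in control and 237 to 393 CPM in HFD+LYC. Sinusoidal endothelial markers gave 2 of 17 lower (238 to 329 CPM against 153 to 213 CPM), and stellate cell and fibroblast markers 2 of 14 lower (229 to 396 CPM against 160 to 237 CPM). Total mRNA did not show these falls in its sums. Its endothelial sums were 459 to 588 CPM in control and 764 to 996 CPM in HFD+LYC. Its Kupffer cell sums (362 to 695 CPM and 352 to 523 CPM) and stellate cell sums (352 to 576 CPM and 386 to 583 CPM) overlapped between the groups. Single Kupffer cell markers were mostly lower in mRNA, with 4 of 24 above control and none called. Their median was -0.73 in mRNA and -1.20 in RNC. The endothelial and stellate cell mRNA medians were 0.22 and -0.02, and that of all genes was -0.06. Decorin (Dcn), a matrix proteoglycan, fell from 131, 89.0 and 120 CPM to 4.14, 20.9 and 17.1 CPM (adjusted p = 0.00321). The 6 B and plasma cell markers found had sums of 5.88 to 12.9 CPM in control and no read in any HFD+LYC RNC library, while total mRNA held at least 16.5 CPM in control and 7.81 to 10.2 CPM in HFD+LYC. The 3 tested had control means of 0.892 to 5.78 CPM. Many genes outside the ribosomal symbols also had no read there. They were 405 of 880 at 0.5 to 1 CPM in control, 320 of 1149 at 1 to 2 CPM, 221 of 2000 at 2 to 5 CPM and 41 of 2131 at 5 to 10 CPM. The 8 adipocyte markers summed to 7.95 to 20.9 CPM in control RNC and 85.3 to 225 CPM in HFD+LYC RNC, where 6 of the 8 were at 0. That sum was almost all adipsin (Cfd), a serine protease of the complement system, with 2.56, 0.795 and 1.40 CPM in control and 79.9, 218 and 150 CPM in HFD+LYC (log2 change 6.56, adjusted p = 2.00e-04), while Fabp4 was not called (-1.41, adjusted p = 0.356). Of 4 tested T and NK cell markers 1 was lower and none higher, and their list summed to 4.11 to 5.47 CPM in control and to 22.8, 4.99 and 3.62 CPM in HFD+LYC. Jchain, the joining chain of secreted antibodies, had 3.58 to 8.55 CPM in control RNC and no read in HFD+LYC RNC. Its mRNA had 6.34 to 10.8 CPM in control and 2.85 to 4.57 CPM in HFD+LYC, and was not called (-1.19, adjusted p = 0.0656).

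Across genes the RNC change went with the mRNA change only loosely. Over 1669 genes at a mean level of 50 CPM or more, leaving out symbols beginning Rpl, Rps, Mrpl or Mrps, the log2 changes in the 2 readouts had a Pearson r of 0.539 and a Spearman rho of 0.489, a description over genes that share libraries. Over all 11572 genes tested in both readouts they were 0.361 and 0.406. Of the 1068 RNC higher calls that were tested in mRNA, 185 (17.3%) were also called higher there and 2 lower. Of 1971 lower calls, 106 (5.38%) were also lower and 2 higher. Dbp, Usp2, Mfsd2a, Lpin1 and Cyp3a11 were called in both readouts, and Rpl10, Apoa1, Ctsd and Etfa in RNC and not in mRNA.

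**Figure D4:**
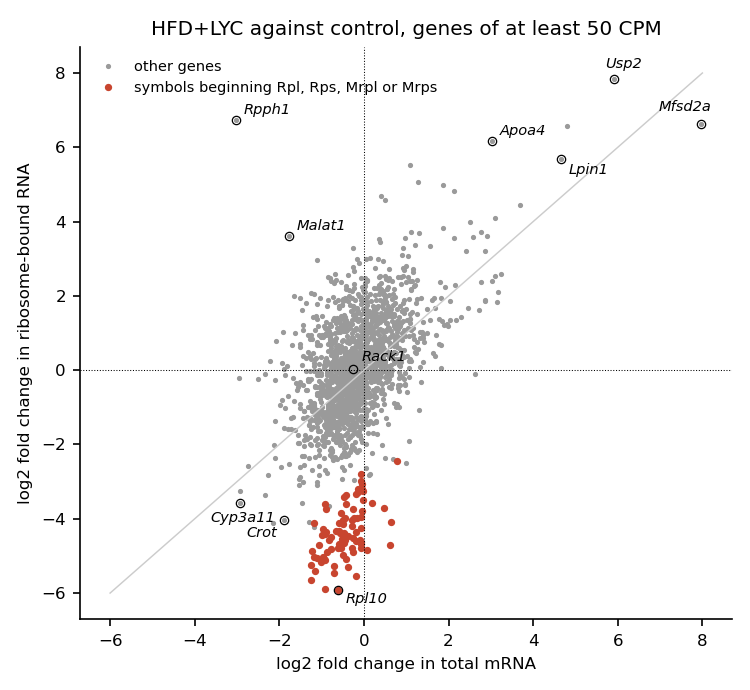
Log2 fold change of HFD+LYC against control in total mRNA (horizontal) and in RNC (vertical), with 1 point per gene of at least 50 CPM in RNC. The grey diagonal marks equal change. Symbols beginning Rpl, Rps, Mrpl or Mrps (red) form a group well below the diagonal, Usp2, Mfsd2a and Lpin1 lie high in both, and Malat1 and Rpph1 are high in RNC and low in mRNA.

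The RNC change also went with base composition. Over 1663 genes of at least 50 CPM outside the ribosomal symbols, the log2 change correlated with transcript GC content at r = 0.425 (rho = 0.462), against r = -0.100 for HFD RNC and 0.304 for HFD+LYC mRNA. The 3 HFD+LYC RNC libraries gave r of 0.361, 0.383 and 0.482 when each was set against the control mean. Median GC content was 54.8% for genes called higher and 46.7% for genes called lower. Transcript length showed little relation (r = 0.0777). The cytosolic ribosomal proteins, with a median GC content of 51.8%, kept 79 of 79 lower calls with the GC offset (median -3.88), and the apolipoprotein list had 23 of 25 higher. Over all 11567 genes of that fit 1971 were called higher and 1182 lower. What set the relation with GC content was not tested.

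**Figure D5:**
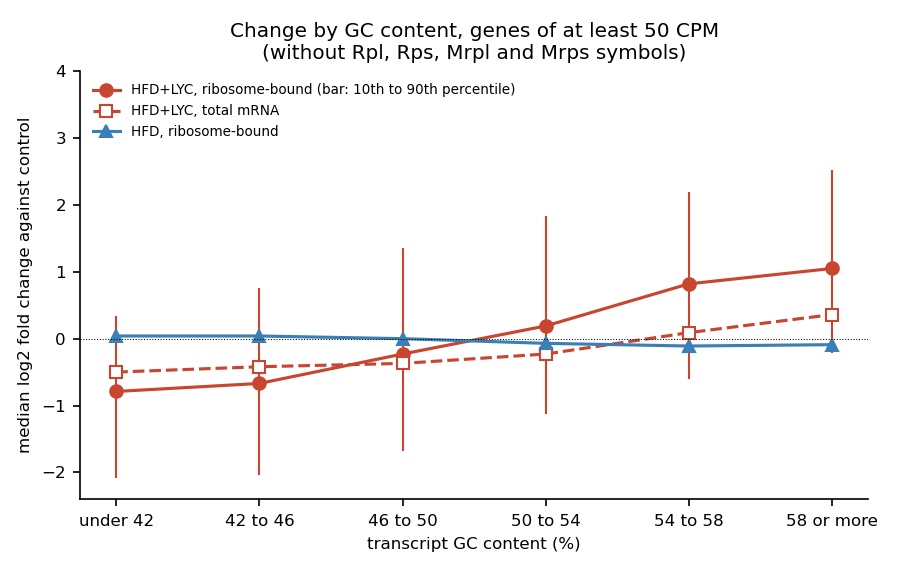
Median log2 fold change against control by transcript GC content, for genes of at least 50 CPM outside the Rpl, Rps, Mrpl and Mrps symbols. Red circles show HFD+LYC in RNC with a bar from the 10th to the 90th percentile of genes, open squares HFD+LYC in total mRNA, and blue triangles HFD in RNC. The HFD+LYC RNC median runs from -0.79 below 42% GC to 1.05 at 58% or more, while the HFD RNC median stays between -0.11 and 0.04.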

How the data were processed

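Poly(A) RNA from mouse liver was sequenced as total mRNA and as ribosome-bound RNA, with 3 biological replicates per diet and kind. Per the series' design text the authors mapped reads to RefSeq RNA sequences and computed RPKM. The deposited tables give a raw read count and an RPKM value per gene, and the RPKM values were not used for tests. The submitters' processing notes name bcl2fastq and mm10, while no aligner or counter is named in the sources used here. Depth was 4533729 to 12742436 reads a library.

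The deposited read counts were tested with edgeR 4.0.16 (quasi-likelihood, TMM factors, filterByExpr with a minimum count of 10) in R 4.3.3, over the 9 RNC libraries, the 9 mRNA libraries, or all 18 with an interaction for the ratio. Alternatives used limma 3.58.1, DESeq2 1.42.0, other scalings and filters, left-out libraries, and a GC offset chosen after the data were seen. A gene at 0 in a group was set against 3 reads over the group. This bound takes a 0 as a true count, which could not be checked for the HFD+LYC RNC libraries, where low counts were scarce. GC content came from GENCODE vM21 transcripts, gene positions from RefSeq GRCm38.p6 (24462 of 24539 symbols matched) and promoters from the first start listed there for each symbol. The method was tested on simulated data that held neither the scarcity of low counts nor the GC trend of the HFD+LYC RNC libraries. Named genes followed a rule on size, list membership and a set panel: the 12 largest rises and falls at a mean of at least 10 CPM without overlap, the 8 largest falls with reads in every library, the 3 called members of smallest p per list and direction, and the panel. Of the 95 genes given, 11 were chosen after their values were seen: Rps6, Rps6kb1, Rps6ka3, Fau, Rack1, Gadd45gip1, Rsl1d1, Imp3, Crot, Id2 and Fabp4. The members and lists were chosen with earlier results of these data known, and 7 of 49 lists were added later. Some items are not reported here.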

Additional observations from a re-analysis of the deposited data

Results flagged for a closer look

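The change from control to HFD+LYC differed between RNC and total mRNA for 357 genes in the higher direction and 1549 in the lower, by the interaction term of edgeR over all 18 libraries. For the genes named above, the log2 change in RNC minus that in mRNA is given in brackets. Among genes with ribosomal symbols it was below 0 for Rpl10 (-5.37), Rps7 (-5.05), Rpl15 (-4.70), Rps6 (-4.27), Rplp0 (-4.09), Mrps33 (-12.12), Mrpl51 (-3.97), Rps27l (-5.42) and Rpl7l1 (-5.17), and for the kinases Rps6kb1 (-4.37) and Rps6ka3 (-6.25). Ribosome components and assembly factors with other names gave Fau (-3.01), Rsl1d1 (-5.82) and Imp3 (-7.78), and the initiation factor gave Eif5b (1.73). Metabolic enzymes and transporters gave Crot (-2.20), Gclm (-1.95), Cth (-2.46), Oat (-2.27), Etfa (-3.00), Acadm (-2.07), Fasn (1.70) and Scarb1 (1.78). Secreted and lysosomal proteins were above 0, with Apoa4 (3.11), Apoa1 (3.09), Apoa5 (2.14), Hp (2.44), Serpina6 (2.51), F10 (2.09), Ctsd (2.98) and Gaa (2.10). Regulators, splicing, chaperone and proteasome genes gave Id2 (-2.01), Cks2 (-10.33), Hnrnph2 (-7.60), Nfil3 (-4.54), Srsf5 (-1.85), Son (2.81), Hsp90aa1 (-1.64), Psma1 (-2.85), Psmd1 (2.25) and Psmb9 (-5.11). Immune genes gave Rsad2 (-7.43) and Jchain (-8.05). Non-coding and muscle RNAs gave Malat1 (5.31), Rmrp (12.45), Rpph1 (9.70), Ttn (12.42) and Myh7 (12.33). The fitted values of genes at 0 in a whole group (Mrps33, Cks2, Rsad2, Jchain, Ttn and Myh7) depend on the prior count and are not bounds.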

How the results depend on the processing

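Over 94 named genes with a test, 2055 of 2113 values under the alternatives kept their direction and side of the threshold, 34 lost the call, 24 gained it and none reversed. In RNC the calls, 1076 higher and 1996 lower in edgeR, became 377 higher with library size alone, 1971 higher and 1182 lower with the GC offset, and 848 lower with that offset and the replicate block. With a mean of at least 10 CPM 999 were lower, with at least 50 CPM 500 were higher and 491 lower, and with the 6 compared libraries alone 1238 were lower. Leaving out 1 library gave 576 to 1508 higher and 1527 to 3097 lower. In mRNA DESeq2 called 927 higher and 701 lower, library size alone 259 and 125, at least 50 CPM 81 and 46, and the 6 libraries alone 177 lower. For the ratio DESeq2 called 776 higher, library size alone 131 higher, and at least 50 CPM 189 lower. Fewer genes were tested under the filters, and otherwise the cause was not tested. With the replicate number as a block, RNC calls were 868 higher and 1855 lower, and mRNA calls 812 and 613. For the ratio the block took same-numbered RNC and mRNA libraries of a diet as from the same liver, which is not stated. Ratio calls were then 270 higher and 1120 lower. Of the RNC calls made without the block and tested in mRNA, 27.2% of the higher and 10.8% of the lower had the same call in mRNA with the block. The deviations of same-numbered control and HFD+LYC libraries correlated at -0.0144, 0.0643 and 0.0153 in RNC and at -0.0822, 0.417 and 0.233 in mRNA, where control replicate 1 and HFD+LYC replicate 3 gave 0.468, so the numbers are not taken as pairs. The block changed none of the 94 gene calls in RNC. Before TMM scaling, 3 reads came to 0.249 to 0.662 CPM in the 6 libraries. The scarcity of low counts in HFD+LYC RNC did not follow depth. HFD+LYC replicate 1 held 11300925 reads, with a read for 8940 genes and 1 to 5 reads for 343. Control replicate 1 held 9429838 reads, with a read for 14333 genes and 1 to 5 reads for 2275. The cause was not tested.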

Other observations

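Over all tested genes 9.23% were called higher and 17.1% lower in RNC. Without HFD+LYC replicate 1 the calls were 1473 higher and 2779 lower of 11907, and with the GC offset 1971 and 1182 of 11567. Of 34 chaperones of the endoplasmic reticulum and genes of the unfolded protein response, 4 were higher and 3 lower in RNC (median -0.04). Without HFD+LYC replicate 1 there were 3 higher and 7 lower. Of 28 genes of glucose metabolism and the insulin response 6 were higher and 2 lower (median 0.25), or 9 and none with the GC offset, and 6 were higher in mRNA. Of 24 male-biased liver genes 4 were lower and none higher, against 8 lower and none higher without HFD+LYC replicate 1 (a median of -1.03 in place of -0.07) and 2 each way with the GC offset. Of 9 female-biased liver genes 3 were higher and 1 lower. Of 22 genes of iron handling 5 were lower and 3 higher, and with the GC offset 1 was lower and 7 were higher.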
